A study of Homo sapiens with 12 samples.

Results

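The genes described here are 29 genes of cholesterol synthesis and of its regulation by the sterol regulatory element-binding proteins (SREBPs), taken by gene name. They comprise 7 mevalonate enzymes, 11 sterol enzymes, 5 regulators of SREBP, 5 genes of sterol transport, efflux and uptake, and LPIN1. All 29 had a row among the 29744 gene rows of the series, and all 29 passed the filter on low counts that left 14417 genes for testing. Their RNA levels come from 12 libraries of 4 human breast lines, 3 biological replicates of each. NeoT (MCFNeoT, benign hyperplasia) is a derivative of MCF10A that was given a mutant HRAS gene. T1 (MCFT1), which stands for atypical hyperplasia, and CA1 (MCFCA1), which stands for invasive cancer, descend from NeoT through growth as xenografts, so that these 3 lines share the HRAS background. A10 (MCF10A, which forms no tumours) is the parent and the line the others are set against. The series design calls all 4 triple-negative; media, passage and clonality are not given in the sources used here. The series tested a preparation that yields DNA, RNA and peptides from the same cells, and the RNA libraries are described here.

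Library totals ran from 18032399 to 35730423 estimated counts. Values are CPM, estimated counts scaled to library size after TMM normalization, so a level can be compared between lines for the same gene but not between genes of different length. Folds and log2 differences come from edgeR's quasi-likelihood test on all 12 libraries. Genes counted as higher or lower passed that test at an adjusted p under 0.05 (Benjamini-Hochberg, over all 14417 genes). Replicates are labelled as biological, but nothing says how they were grown apart, so the p-values rest on the spread between these libraries. That spread was estimated for each gene over all 12 libraries together, so it need not match the spread within any single line. T1 replicate 1 held 7.76% of its counts in 4 cytoplasmic rRNA rows against 0.954% to 2.18% in the other 11 libraries, and the spread among NeoT replicates was the widest of the lines (biological coefficient of variation 16.0% in NeoT, 8.34% in T1, 6.38% in CA1 and 8.60% in A10). Of 8 mammary epithelial markers, 6 were lower and 1 higher in NeoT than in A10, against 36.7% and 33.7% of all genes. Their summed level was 796 to 921 CPM in NeoT against 4548 to 4933 CPM in A10. Most of these markers were thus weak in NeoT, but KRT8 was 3.22-fold higher there and KRT18 did not pass (adjusted p = 0.185). The summed level was 6298 to 6627 CPM in T1 and 8589 to 9356 CPM in CA1. In T1, 6 of the 8 were higher and 2 lower than in A10, against 26.0% and 25.9% of all genes. In CA1, 5 of the 8 were higher and 2 lower than in A10, against 34.4% and 36.5% of all genes. KRT8 and KRT18 made up most of the CA1 sum (means of 3699 and 3188 CPM), whereas KRT5 was 12.4-fold and KRT14 135-fold lower in CA1 than in A10.

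Cells make cholesterol from acetyl-CoA through the mevalonate pathway, which ends in farnesyl diphosphate, and then through the sterol branch, which starts with squalene. SREBP2, encoded by SREBF2, and SREBP1, encoded by SREBF1, are membrane-bound transcription factors that SCAP escorts from the endoplasmic reticulum when sterols are low and that INSIG proteins hold back when sterols are plentiful. Oxysterols in turn activate the liver X receptors (LXR), which raise the exporters ABCA1 and ABCG1, the ubiquitin ligase MYLIP and SREBF1. Epithelial cells in culture both make sterols and take them up from serum lipoproteins.

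SREBPs bind sterol regulatory elements beside NF-Y and Sp1 in the promoters of their targets, and 4 promoters of genes that were all higher in CA1 than in A10 are therefore shown. RefSeq promoters (GRCh38.p14) were matched by symbol for 25 of the 29 genes, all but ACAT2, FDFT1, SQLE and ABCG1. In the 250 bases before each start, on both strands, the element TCACNCCAC stood in 1 of the 25 genes, SREBF2, and in 1.09% of 27305 genes. Only this exact spelling was searched, so the genes without it cannot be said to lack a sterol element. The NF-Y box CCAAT stood in 17 of the 25 (68% against 37% of the 27305 genes), and the Sp1 box GGGCGG in 24 (96% against 46.2%). At least 3 NF-Y boxes stood in 7 of the 25 genes, or 28% against 3.55% of the 27305 genes. The 27305 genes were not limited to the 14417 genes tested, whereas the 25 were all tested, so the shares do not compare like sets. A gene with several start sites was scored by the window with the most matches. In the sequences below, read 5′ to 3′ on the strand of the gene, capitals mark the sterol element TCACNCCAC (only in SREBF2) and NF-Y boxes, which read CCAAT or, on the other strand, ATTGG. SREBF2 is shown for its sterol element, and MVD, FDPS and MSMO1 for 3 or 4 NF-Y boxes.
SREBF2, chr22:41832962-41833013, plus strand: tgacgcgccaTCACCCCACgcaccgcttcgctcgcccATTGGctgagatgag
MVD, chr16:88663162-88663260, minus strand: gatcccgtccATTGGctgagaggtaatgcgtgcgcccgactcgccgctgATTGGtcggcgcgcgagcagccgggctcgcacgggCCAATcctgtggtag
FDPS, chr1:155308680-155308829, plus strand: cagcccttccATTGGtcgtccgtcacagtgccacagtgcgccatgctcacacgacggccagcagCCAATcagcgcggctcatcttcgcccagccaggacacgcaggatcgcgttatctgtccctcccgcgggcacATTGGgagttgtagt
MSMO1, chr4:165327474-165327649, plus strand: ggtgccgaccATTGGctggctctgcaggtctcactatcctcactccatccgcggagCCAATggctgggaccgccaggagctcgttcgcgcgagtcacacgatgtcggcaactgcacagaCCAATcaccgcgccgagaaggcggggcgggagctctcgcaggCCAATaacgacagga
In SREBF2 the sterol element begins at base -133 and the NF-Y box at base -106, counted from the start site, before which stands base -1. In MSMO1 the NF-Y boxes begin at bases -185, -139, -76 and -34. A match describes letters in this window and does not show that a factor binds there.

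CA1 stood apart from the other lines in this pathway, with most of its enzymes and regulators at their highest level. All 3 CA1 libraries lay above the other 9 libraries for 21 of the 29 genes, against 16.7% of all genes tested, and for 16 of the 18 enzymes. NeoT held the lowest levels for many of the same enzymes: its 3 libraries lay below the other 9 for 11 of the 29 genes, against 17.7% of all genes tested. CA1 lay below the other 9 libraries for ACAT2, SCAP, ABCG1 and MYLIP (4 genes, against 14.8% of all genes), and NeoT lay above them for 0 (against 17.0%). T1 lay above for SREBF1 and ABCG1 (2 genes, against 8.25%) and below for SQLE, CYP51A1, INSIG1, STARD4 and NPC1 (5 genes, against 5.34%). For SREBF1 the margin was slight, with the lowest T1 library at 635.1 CPM and the highest CA1 library at 633.6 CPM. CA1 against T1 did not pass the test for this gene (adjusted p = 0.564). A10 lay above for ACAT2 and PMVK (2 genes, against 15.9%) and below for SREBF2 and LPIN1 (2 genes, against 11.6%). The 4 lines differed in 28 of the 29 genes, but 89.8% of all genes tested differed among the lines. The gene outside this count was ABCA1 (adjusted p = 0.0697). In bulk RNA, fewer cells that express a gene and less of its RNA per cell cannot be told apart.

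**Figure D1:**
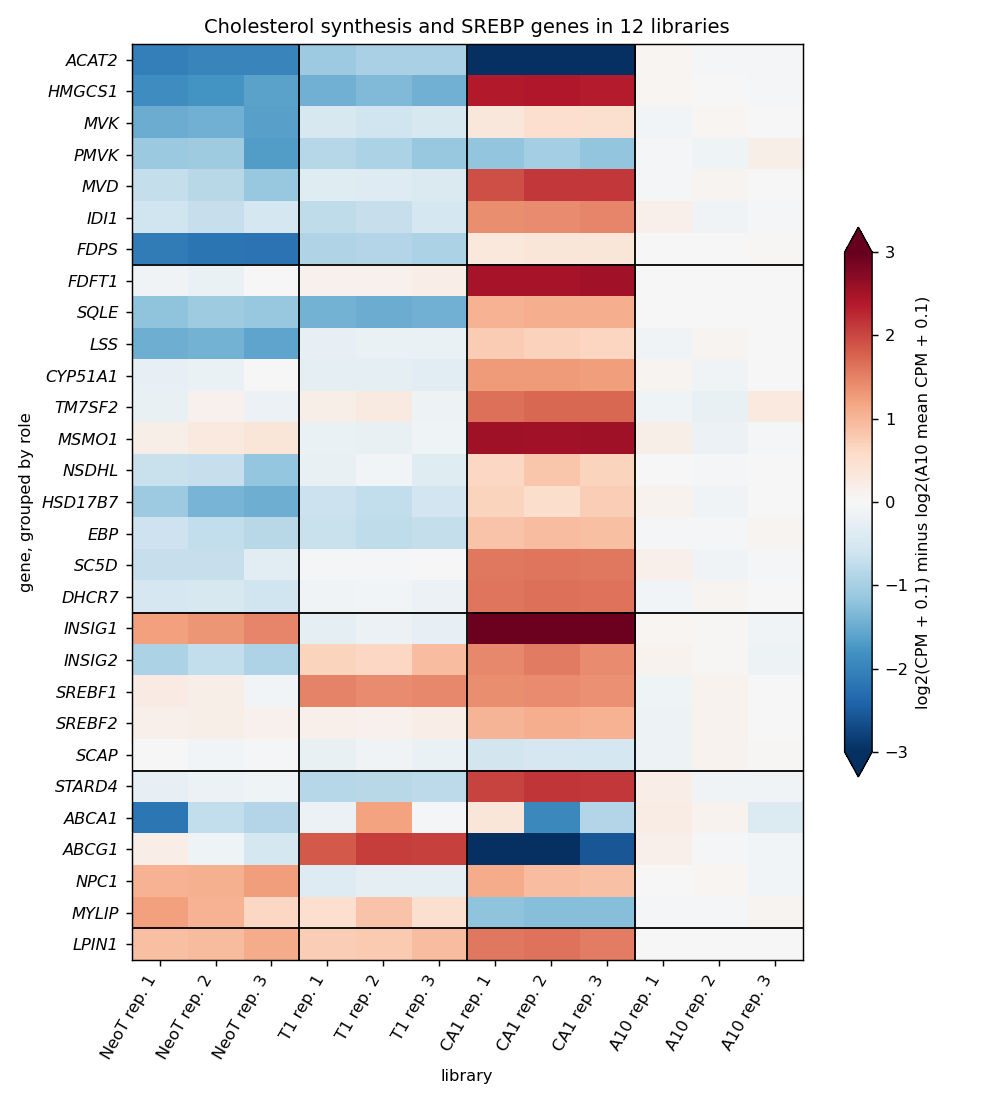
Level of each of the 29 genes (rows, grouped by role from mevalonate enzymes at the top to LPIN1 at the bottom) in each of 12 libraries (columns, by line), as log2(CPM + 0.1) minus the log2 of the A10 mean + 0.1, with colours ending at 3 in either direction. The CA1 columns are red in most rows, with ACAT2, PMVK, SCAP, ABCG1 and MYLIP blue, and the NeoT columns are blue in most enzyme rows. ABCA1, which is sparsely counted, is mixed in CA1: blue in replicates 2 and 3 and red in replicate 1.

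Against A10, CA1 had 23 of the 29 genes higher and 5 lower, with a median log2 fold change of 1.07, while 34.4% of all genes tested were higher, 36.5% were lower and their median was -0.02. NeoT had 6 higher and 15 lower than A10 (median -0.56), against 33.7% higher and 36.7% lower over all genes (median -0.04). T1 had 7 higher and 15 lower than A10 (median -0.22), against 26.0% higher and 25.9% lower over all genes (median -0.01). These 3 comparisons share the A10 libraries. Without both T1 replicate 1 and NeoT replicate 3, the counts were 23 higher and 5 lower in CA1, 7 and 18 in NeoT, and 7 and 16 in T1. The count of 7 higher in T1 was 4 without T1 replicate 2, where FDFT1, SREBF2 and MYLIP lost their calls (adjusted p = 0.0514, 0.0634 and 0.0842). The count of 15 lower in T1 was 19 without NeoT replicate 3, though NeoT is not in that comparison.

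The 7 mevalonate enzymes were all lower in NeoT than in A10 and all lower in T1 than in A10, whereas in CA1 5 were higher and 2 lower than in A10. Over all genes tested, 36.7% were lower in NeoT, 25.9% were lower in T1, and 34.4% were higher and 36.5% lower in CA1. HMGCS1, which joins acetoacetyl-CoA and acetyl-CoA to HMG-CoA, stood at 61.5, 64.4 and 73.7 CPM in NeoT, 82.3, 89.2 and 82.6 in T1, 1171, 1183 and 1146 in CA1, and 232, 223 and 217 in A10. No 2 lines overlapped, and the order ran from NeoT through T1 and A10 to CA1. HMGCS1 was 3.37-fold lower in NeoT than in A10 (log2 -1.75, SE 0.069, adjusted p = 7.98e-14) and 2.64-fold lower in T1 than in A10 (log2 -1.40, SE 0.068, adjusted p = 4.09e-12). It was 5.22-fold higher in CA1 than in A10 (log2 2.38, SE 0.069, adjusted p = 1.01e-15).

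FDPS, which makes farnesyl diphosphate at the branch point to sterols and prenylated proteins, stood at 111, 104 and 103 CPM in NeoT, 254, 257 and 246 in T1, 592, 611 and 615 in CA1, and 468, 467 and 488 in A10. Its order of lines was that of HMGCS1, again without overlap, but its differences were larger below A10 than above it: 4.48-fold lower in NeoT than in A10 (adjusted p = 2.73e-16), 1.88-fold lower in T1 (adjusted p = 1.09e-10) and 1.28-fold higher in CA1 (adjusted p = 1.45e-05). MVD, the decarboxylase that yields isopentenyl diphosphate, stood at 44.3, 40.4 and 33.0 CPM in NeoT, 56.3, 55.2 and 53.3 in T1, 276, 316 and 313 in CA1, and 69.3, 76.1 and 71.1 in A10. It was 4.18-fold higher in CA1 than in A10 (adjusted p = 3.31e-13), 1.84-fold lower in NeoT (adjusted p = 7.56e-08) and 1.31-fold lower in T1 (adjusted p = 0.00102).

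IDI1, the isomerase that supplies dimethylallyl diphosphate, stood at 75.8, 71.1 and 79.8 CPM in NeoT, 68.0, 70.5 and 79.1 in T1, 303, 306 and 315 in CA1, and 128, 106 and 110 in A10. NeoT and T1 overlapped and did not pass the test against each other (adjusted p = 0.53 for T1 against NeoT), while IDI1 was 2.68-fold higher in CA1 than in A10 (adjusted p = 1.07e-11). MVK, the mevalonate kinase, averaged 21.2 ± 1.30 CPM in NeoT, 42.5 ± 2.16 in T1, 82.8 ± 5.51 in CA1 and 61.0 ± 2.93 in A10 (SD, n = 3 each), and was 1.36-fold higher in CA1 than in A10 (adjusted p = 6.34e-05). PMVK, the kinase that follows it, was lower in all 3 derived lines: it averaged 17.6 ± 3.81 CPM in NeoT, 21.4 ± 2.04 in T1, 19.3 ± 1.37 in CA1 and 42.2 ± 4.73 in A10 (SD, n = 3 each). PMVK was 2.18-fold lower in CA1 than in A10 (adjusted p = 5.38e-07), and the derived lines overlapped with each other. Of 102 tested genes within 2 Mb of PMVK on chromosome 1, 63 were lower and 14 higher in CA1 than in A10 (median log2 -0.75), and the medians were -0.41 in NeoT and -0.67 in T1. The part of this neighbourhood, most of which also lies around FDPS, was not tested.

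ACAT2, the cytosolic thiolase that makes acetoacetyl-CoA for the pathway, was nearly absent from CA1, where 16 of the 17 other enzymes were higher than in A10. It stood at 21.8, 23.0 and 22.8 CPM in NeoT, 42.7, 45.8 and 46.1 in T1, 0, 0.432 and 0 in CA1, and 94.8, 88.3 and 88.4 in A10. The 3 CA1 libraries held 10 counts in all, each of them in replicate 2, for a pooled level of 0.154 CPM (95% exact Poisson interval 0.0740 to 0.284, counting error only). The interval assumes the same rate in the 3 libraries, which differed, so it does not bound the level of the line. The fitted value was 569-fold lower in CA1 than in A10 (log2 -9.15, SE 0.27, adjusted p = 9.36e-15). Without CA1 replicate 2, the 2 remaining CA1 libraries were at 0. In those 2 libraries ACAT2 was at least 1265-fold lower than in A10, taking 3 counts over both as the floor. This value leaves out the only CA1 library with counts and is not a lower bound for the line. ACAT2 was also 4.02-fold lower in NeoT (adjusted p = 1.09e-09) and 2.02-fold lower in T1 (adjusted p = 6.86e-06) than in A10.

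The end of ACAT2 (chromosome 6, 159762045 to 159779112, GRCh38) overlaps TCP1, a chaperonin subunit gene on the opposite strand, and 9 of its 12 values were not whole numbers, to a tolerance of 0.01. The labels name a library kit but not whether strand was kept, so reads in the overlap cannot be told apart. TCP1 stood at 358, 364 and 423 CPM in NeoT, 321, 310 and 351 in T1, 337, 318 and 323 in CA1, and 337, 317 and 326 in A10, and did not pass the test in CA1 against A10 (log2 0.00, SE 0.070, adjusted p = 0.968). Of 18 tested genes within 2 Mb of ACAT2, 12 were higher and 5 lower in CA1 than in A10, with a median log2 fold change of 0.31. SOD2, a mitochondrial superoxide dismutase gene that overlaps the other end of ACAT2 on the opposite strand, stood at 30.9, 35.0 and 33.1 CPM in CA1 against 307, 302 and 291 CPM in A10. Most of the tested genes around ACAT2 were thus higher in CA1, while the SOD2 levels of CA1 lay below those of A10. Low SOD2 was not particular to CA1. In T1, where ACAT2 stood at 42.7, 45.8 and 46.1 CPM, SOD2 stood at 45.9, 47.1 and 47.1 CPM. In NeoT, SOD2 stood at 675, 702 and 744 CPM.

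**Figure D2:**
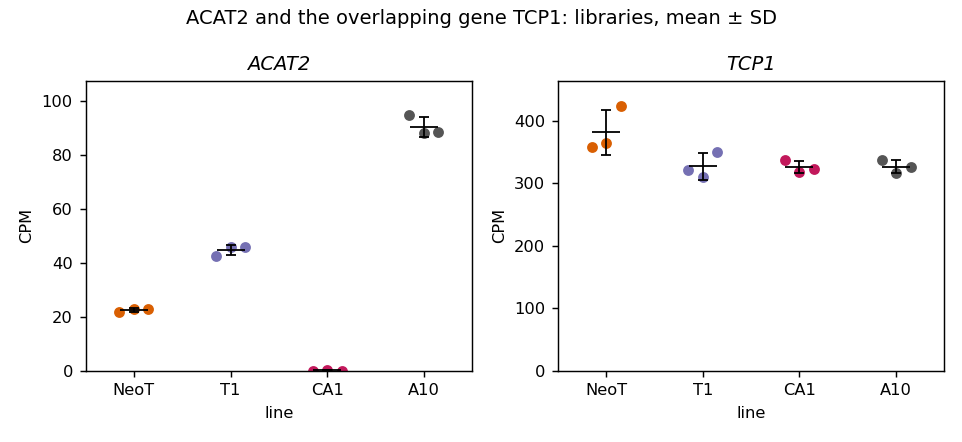
CPM of ACAT2 (left) and of the overlapping gene TCP1 (right) in the 3 libraries of each line, with the mean and SD as bars, on linear axes that start at 0. ACAT2 lies between 0 and 0.432 CPM in CA1, whereas TCP1 lies between 318 and 337 CPM there.

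All 11 sterol enzymes were higher in CA1 than in A10, by log2 0.65 to 2.54. NeoT had 7 of them lower and 1 higher than A10, and T1 had 5 lower and 1 higher. Over all genes tested, 34.4% were higher in CA1, 36.7% lower and 33.7% higher in NeoT, and 25.9% lower and 26.0% higher in T1. FDFT1, the squalene synthase that opens the sterol branch, stood at 339, 317 and 358 CPM in NeoT, 397, 395 and 417 in T1, 2004, 2009 and 2068 in CA1, and 366, 358 and 364 in A10. It was 5.59-fold higher in CA1 than in A10 (log2 2.48, SE 0.059, adjusted p = 7.10e-17), while the other lines lay close together: T1 was 1.11-fold higher than A10 (adjusted p = 0.0309) and NeoT did not pass against A10 (log2 -0.10, adjusted p = 0.115). The T1 call on FDFT1 was lost under 7 of 22 alternatives.

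SQLE, squalene epoxidase and a rate-limiting oxygenase of the branch, stood at 121, 133 and 125 CPM in NeoT, 104, 98.1 and 102 in T1, 568, 592 and 592 in CA1, and 281, 277 and 275 in A10. T1 was the lowest line for SQLE, without overlap, at 2.74-fold below A10 (adjusted p = 2.82e-13), and CA1 was 2.10-fold above A10 (adjusted p = 7.06e-12). The 22 tested genes within 2 Mb of SQLE on chromosome 8 had median log2 fold changes of -1.24 in NeoT, -0.65 in T1 and -0.94 in CA1 against A10. LSS, which closes squalene epoxide into lanosterol, stood at 56.9, 58.5 and 52.0 CPM in NeoT, 131, 136 and 136 in T1, 265, 253 and 245 in CA1, and 145, 165 and 158 in A10. LSS was 2.79-fold lower in NeoT (adjusted p = 9.53e-13) and 1.63-fold higher in CA1 (adjusted p = 2.39e-08) than in A10.

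MSMO1, the C4 methylsterol oxidase, stood at 266, 287 and 303 CPM in NeoT, 204, 203 and 215 in T1, 1381, 1343 and 1375 in CA1, and 266, 209 and 231 in A10. MSMO1 was 5.80-fold higher in CA1 than in A10 (log2 2.54, SE 0.079, adjusted p = 3.16e-15) and was the only one of the 18 enzymes called higher in NeoT than in A10 (1.21-fold, adjusted p = 0.00314), with 1 NeoT and 1 A10 library at nearly the same level. CYP51A1, the lanosterol 14-demethylase, averaged 183 ± 16.9 CPM in NeoT, 165 ± 1.95 in T1, 491 ± 2.37 in CA1 and 203 ± 12.6 in A10 (SD, n = 3 each). It was 2.41-fold higher in CA1 than in A10 (adjusted p = 7.56e-12) and did not pass in NeoT against A10 (adjusted p = 0.0526). NSDHL, the C4 decarboxylating dehydrogenase, was 1.76-fold lower in NeoT (adjusted p = 4.41e-06) and 1.64-fold higher in CA1 (adjusted p = 1.32e-05) than in A10.

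DHCR7, which makes cholesterol from 7-dehydrocholesterol, stood at 158, 161 and 147 CPM in NeoT, 208, 210 and 197 in T1, 675, 703 and 689 in CA1, and 211, 236 and 223 in A10. It was 3.09-fold higher in CA1 (log2 1.63, SE 0.062, adjusted p = 5.52e-14) and 1.44-fold lower in NeoT (adjusted p = 4.31e-07) than in A10, and did not pass in T1 (log2 -0.12, adjusted p = 0.0969). SC5D, the desaturase before it, was 3.01-fold higher in CA1 (adjusted p = 1.94e-11) and 1.47-fold lower in NeoT (adjusted p = 3.16e-05) than in A10. EBP, the sterol isomerase, was 1.86-fold higher in CA1 (adjusted p = 1.05e-09) and lower in NeoT (1.65-fold, adjusted p = 2.45e-08) and T1 (1.64-fold, adjusted p = 6.77e-08). TM7SF2, a C14 sterol reductase, averaged 7.37 ± 1.06 CPM in NeoT, 8.43 ± 1.25 in T1, 25.5 ± 0.709 in CA1 and 7.78 ± 1.56 in A10 (SD, n = 3 each), and CA1 alone passed against A10 (3.28-fold higher, adjusted p = 1.11e-08). HSD17B7, the 3-ketosteroid reductase, was 2.48-fold lower in NeoT (adjusted p = 1.71e-08), 1.58-fold lower in T1 (adjusted p = 8.87e-05) and 1.56-fold higher in CA1 (adjusted p = 4.85e-05) than in A10. It shares sequence with a pseudogene, HSD17B7P2, that was itself higher in CA1 than in A10 (log2 3.12, adjusted p = 8.01e-06), so its values are uncertain.

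**Figure D3:**
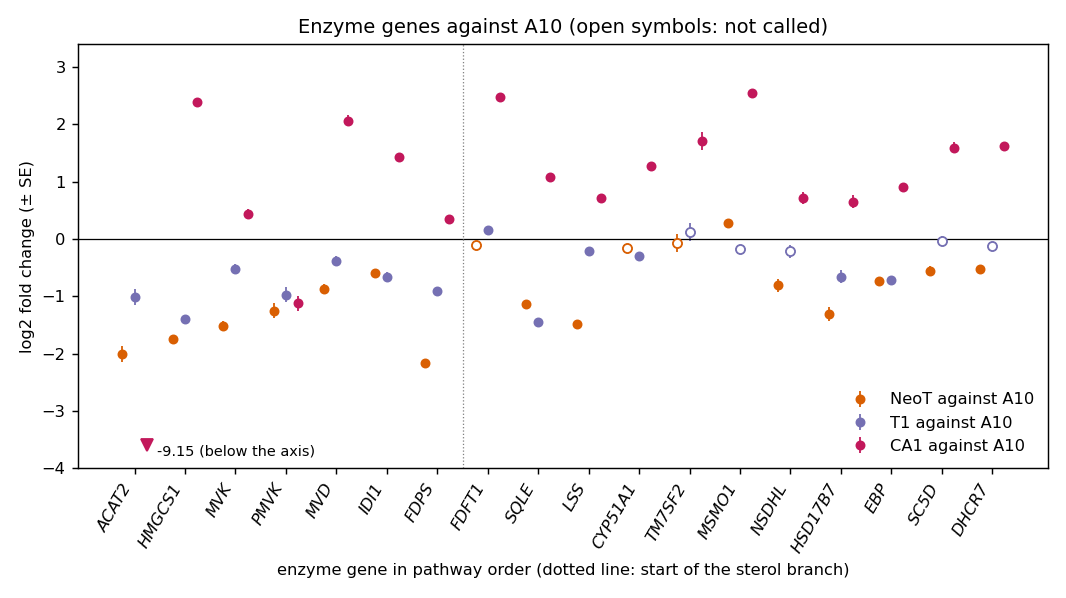
Log2 fold change against A10 (y axis, with SE) of the 18 enzyme genes in pathway order (x axis) for NeoT, T1 and CA1, where open symbols did not pass the test and the triangle marks ACAT2 in CA1, whose value of -9.15 lies below the axis. CA1 lies above 0 for 16 enzymes, and ACAT2 and PMVK lie below 0 in all 3 lines.

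The promoter windows shown above can be set beside these values. Of the 17 genes with an NF-Y box, 16 were higher and 1 (MYLIP) lower in CA1 than in A10. Of the 8 genes with none, 5 were higher and 2 lower, against 34.4% higher and 36.5% lower over all genes tested. PMVK and CYP51A1 were the only enzymes among those 8, so the box and the role of a gene cannot be told apart here. In NeoT against A10 the 17 genes with a box split into 4 higher and 11 lower, against 33.7% and 36.7% over all genes. The genes were chosen with earlier results known, and the windows were not tested against the levels.

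Of the 5 regulators of SREBP, 4 were higher and 1 lower in CA1 than in A10, 2 were higher and 1 lower in NeoT, and 3 were higher and 1 lower in T1. Over all genes tested, 34.4% were higher and 36.5% lower in CA1, 33.7% and 36.7% in NeoT, and 26.0% and 25.9% in T1. INSIG1, an SREBP target that holds SCAP in the endoplasmic reticulum, stood at 186, 199 and 219 CPM in NeoT, 65.3, 69.7 and 66.7 in T1, 602, 611 and 605 in CA1, and 82.4, 81.1 and 73.2 in A10. It was 7.69-fold higher in CA1 than in A10 (log2 2.94, SE 0.072, adjusted p = 1.09e-16). INSIG1 was also 2.55-fold higher in NeoT than in A10 (adjusted p = 3.26e-12), the line where 14 of 18 enzymes were lower, and 1.17-fold lower in T1 (adjusted p = 0.0091). INSIG2, its paralog, which is not induced by SREBP in the same way, stood at 9.16, 10.6 and 9.29 CPM in NeoT, 28.0, 27.1 and 33.5 in T1, 48.1, 52.3 and 47.8 in CA1, and 19.0, 18.0 and 16.0 in A10. The paralogs moved in opposite directions in NeoT and in T1: INSIG2 was 1.83-fold lower in NeoT (adjusted p = 1.76e-06) and 1.66-fold higher in T1 (adjusted p = 9.96e-06) than in A10. In CA1 INSIG2 was 2.79-fold higher than in A10 (adjusted p = 4.28e-10).

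SREBF1, which encodes the SREBP that favours fatty acid genes, stood at 278, 269 and 223 CPM in NeoT, 661, 635 and 637 in T1, 617, 634 and 612 in CA1, and 217, 254 and 238 in A10. T1 and CA1 were high and NeoT and A10 low, with overlap between NeoT and A10. SREBF1 was 2.73-fold higher in T1 (log2 1.45, SE 0.077, adjusted p = 1.58e-11) and 2.63-fold higher in CA1 (log2 1.39, SE 0.077, adjusted p = 1.06e-11) than in A10. The log2 difference of CA1 from T1 was -0.05 (SE 0.075, adjusted p = 0.564). SREBF1 lies on chromosome 17 (17811334 to 17836986) and overlaps RAI1, which was also higher in T1 (log2 1.29, adjusted p = 2.69e-09) and in CA1 (log2 0.77, adjusted p = 1.18e-06) than in A10. Of 54 tested genes within 2 Mb of SREBF1, 29 were higher and 8 lower in T1 (median log2 0.74), 35 higher and 6 lower in CA1 (median 0.98), and 40 higher and 3 lower in NeoT (median 1.02), where SREBF1 itself did not pass (log2 0.12, adjusted p = 0.169). The part of this neighbourhood in the SREBF1 values was not tested.

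SREBF2, which encodes the SREBP that favours cholesterol genes, stood at 382, 389 and 376 CPM in NeoT, 383, 376 and 391 in T1, 700, 731 and 709 in CA1, and 311, 371 and 347 in A10. CA1 lay above the other lines, at 2.08-fold over A10 (log2 1.06, SE 0.063, adjusted p = 3.49e-11). NeoT and T1 were each 1.12-fold over A10 (adjusted p = 0.0322 in NeoT and 0.0383 in T1), and these calls were lost under 6 of 22 alternatives in NeoT and 10 of 22 in T1. SCAP, the escort of SREBP, ran the other way and was lowest in CA1, with 80.0, 82.0 and 81.0 CPM in CA1 against 104, 126 and 121 in A10 (1.44-fold lower, adjusted p = 3.14e-06). In NeoT and T1, SCAP did not pass against A10 (log2 -0.06 and -0.17, adjusted p = 0.506 and 0.0614).

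**Figure D4:**
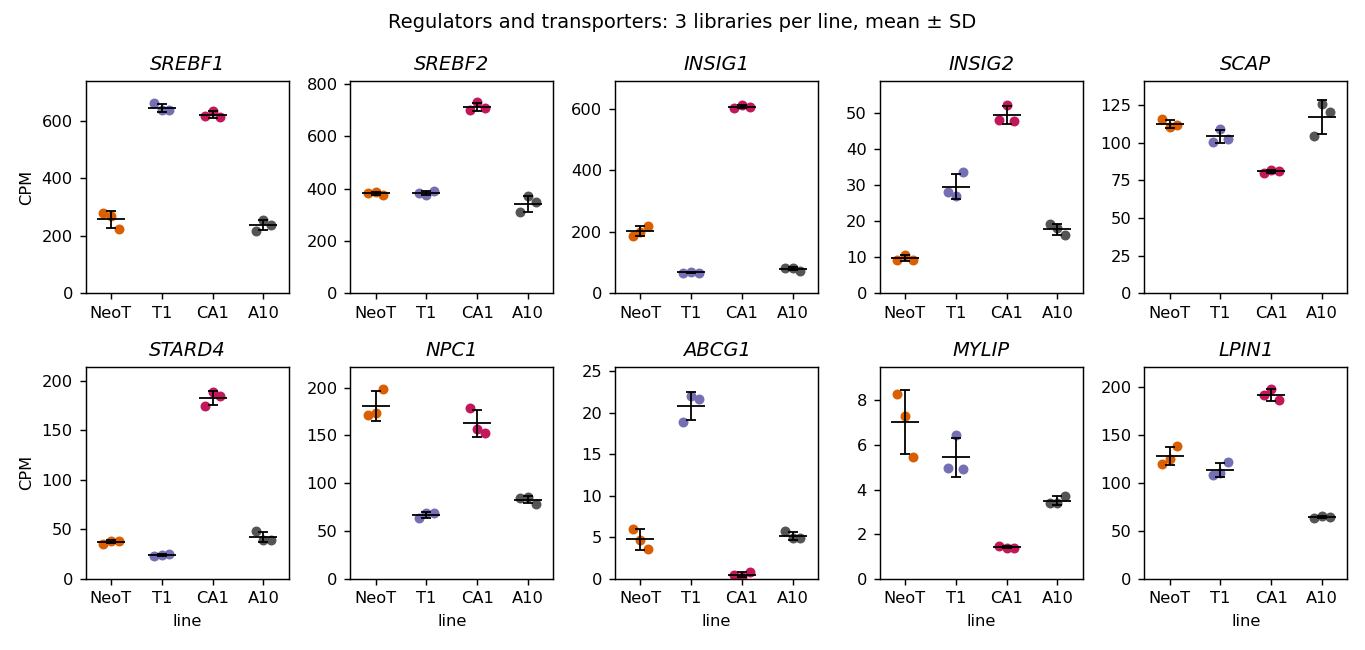
CPM of 10 regulators and transport genes in the 3 libraries of each line (points), with the mean and SD as bars, on linear axes that start at 0. INSIG1, INSIG2, SREBF2, STARD4 and LPIN1 are highest in CA1, where ABCG1, MYLIP and SCAP are lowest, and SREBF1 is high in T1 and CA1.

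The genes of sterol transport did not share a direction. STARD4, a cytosolic sterol carrier and SREBP target, stood at 35.6, 37.8 and 38.5 CPM in NeoT, 23.2, 23.6 and 24.7 in T1, 174, 189 and 185 in CA1, and 48.5, 39.3 and 39.6 in A10. Like most enzymes it was highest in CA1, 4.29-fold above A10 (log2 2.10, SE 0.084, adjusted p = 1.01e-13), and it was 1.78-fold lower in T1 than in A10 (adjusted p = 1.41e-07). NPC1, which lets cholesterol out of lysosomes after lipoprotein uptake, stood at 171, 173 and 199 CPM in NeoT, 63.1, 69.2 and 68.4 in T1, 178, 157 and 152 in CA1, and 84.1, 85.9 and 78.4 in A10. NPC1 was thus high in NeoT (2.18-fold over A10, adjusted p = 3.25e-10) and likewise stood 1.96-fold over A10 in CA1 (adjusted p = 2.70e-09), and these 2 lines overlapped (CA1 against NeoT, log2 -0.15, SE 0.078, adjusted p = 0.0891).

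Of the LXR targets that export sterol or limit its uptake, ABCG1 and MYLIP were lower in CA1 than in A10, and ABCA1 did not pass the test. ABCG1, a sterol exporter, stood at 5.98, 4.70 and 3.54 CPM in NeoT, 18.9, 22.0 and 21.7 in T1, 0.507, 0.216 and 0.796 in CA1, and 5.73, 4.95 and 4.88 in A10. It was 4.01-fold higher in T1 than in A10 (log2 2.00, SE 0.21, adjusted p = 1.51e-07) and 10.1-fold lower in CA1 than in A10 (log2 -3.34, SE 0.29, adjusted p = 9.18e-09). ABCG1 was 40.6-fold lower in CA1 than in T1 (adjusted p = 1.18e-11), the 2 lines with the highest SREBF1 levels. MYLIP, a ubiquitin ligase that removes lipoprotein receptors, stood at 8.29, 7.29 and 5.46 CPM in NeoT, 4.98, 6.46 and 4.91 in T1, 1.46, 1.38 and 1.38 in CA1, and 3.39, 3.39 and 3.72 in A10. MYLIP was 2.48-fold lower in CA1 (adjusted p = 5.82e-05), 2.01-fold higher in NeoT (adjusted p = 0.000268) and 1.56-fold higher in T1 (adjusted p = 0.0138) than in A10. ABCA1, the exporter to lipid-poor apolipoproteins, was sparsely counted (23 estimated counts in all in NeoT, 118 in T1, 37 in CA1 and 88 in A10), at 0.131, 0.518 and 0.464 CPM in NeoT, 0.818, 2.31 and 0.899 in T1, 1.24, 0.173 and 0.461 in CA1, and 1.11, 1.02 and 0.686 in A10. Its libraries overlapped between CA1 and A10 and between T1 and A10, and the depth did not show a difference from A10 in any line (adjusted p = 0.0865 in NeoT, 0.501 in T1 and 0.393 in CA1).

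LPIN1, a phosphatidate phosphatase that also responds to SREBP, was higher in every derived line than in A10. It stood at 120, 125 and 139 CPM in NeoT, 108, 111 and 122 in T1, 192, 199 and 186 in CA1, and 63.7, 65.5 and 64.5 in A10. The folds over A10 were 1.98 in NeoT (adjusted p = 4.54e-10), 1.76 in T1 (adjusted p = 1.45e-08) and 2.98 in CA1 (log2 1.58, SE 0.071, adjusted p = 6.27e-13).

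CA1 was set apart from each of the other derived lines by most of the pathway. It had 22 of the 29 genes higher and 4 lower than T1 (median log2 1.28, with 30.4% higher and 31.9% lower over all genes tested), led by HMGCS1 (13.8-fold, adjusted p = 1.21e-17), INSIG1 (9.01-fold, adjusted p = 1.20e-16) and STARD4 (7.66-fold, adjusted p = 4.08e-15). ACAT2, SCAP, ABCG1 and MYLIP were the 4 lower genes. CA1 against NeoT likewise gave 22 higher and 4 lower (median log2 1.79, with 33.8% and 32.7% over all genes), with HMGCS1 at 17.6-fold (adjusted p = 6.19e-19) and MVD at 7.67-fold (adjusted p = 1.99e-15). T1 against NeoT gave 15 higher and 6 lower (35.0% and 32.4% over all genes): LSS was 2.40-fold higher (adjusted p = 9.19e-12), FDPS 2.38-fold higher (adjusted p = 5.16e-13) and INSIG1 2.99-fold lower (adjusted p = 3.46e-13) in T1. These comparisons share libraries with each other and with those against A10.

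Lipogenic SREBP1 targets, many of which make or desaturate fatty acids, were higher in CA1 than in A10 in 10 of 12 cases and lower in 1 (median log2 1.17). Over all genes, 34.4% were higher and 36.5% lower. The list also holds TMEM97, PNPLA3 and ACSL3, which do neither. SCD, the stearoyl-CoA desaturase, was 9.69-fold higher (adjusted p = 1.81e-18), ACSS2, which makes acetyl-CoA from acetate, was 12.9-fold higher (adjusted p = 1.11e-17), and FADS2, a fatty acid desaturase, was 8.67-fold lower (adjusted p = 1.28e-16). FADS2 was also lower than in A10 in NeoT (19.3-fold, adjusted p = 3.46e-18) and in T1 (16.7-fold, adjusted p = 2.45e-17). In T1, where SREBF1 averaged 644 CPM against 236 CPM in A10, 4 of these 12 genes were higher and 4 lower than in A10 (median 0.11), and in NeoT 5 were higher and 5 lower (median 0.01). Over all genes, 26.0% were higher and 25.9% lower in T1, and 33.7% higher and 36.7% lower in NeoT, shares that hold for the lists that follow as well. ACSS2 stood at 1094, 1088 and 1071 CPM in CA1 against 85.2, 83.6 and 84.0 CPM in A10, with no overlap.

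The list of sterol transport, esterification and LXR genes had 22 of 24 genes tested. In CA1 13 were higher and 4 lower than in A10 (median log2 0.71), in NeoT 11 and 8 (median 0.23), and in T1 8 and 7 (median 0.03). NR1H3, which encodes LXR alpha, was higher in all 3 derived lines than in A10: 6.81-fold in NeoT (adjusted p = 2.93e-13), 3.87-fold in T1 (adjusted p = 1.17e-10) and 6.41-fold in CA1 (adjusted p = 5.23e-13). SOAT1, which esterifies cholesterol for storage, was lower in each, by 7.05-fold in CA1 (adjusted p = 1.11e-13) and 3.82-fold in T1 (adjusted p = 2.24e-11). SREBP processing and sterol-sensing degradation genes gave 3 higher and 7 lower of 12 in CA1 against A10 (median -0.29), with UBE2G2, a ubiquitin-conjugating enzyme of the endoplasmic reticulum, 2.56-fold lower (adjusted p = 1.36e-10). They gave 6 higher and 4 lower in NeoT, where RNF145, a sterol-responsive ubiquitin ligase, was 4.03-fold lower (adjusted p = 3.82e-15), and 4 and 4 in T1. The isoprenoid branches, which use farnesyl diphosphate for prenylation, dolichol and ubiquinone, gave 4 higher and 8 lower of 15 in CA1 (median -0.26, against 34.4% higher and 36.5% lower over all genes), 6 and 6 in NeoT (33.7% and 36.7% over all genes), and 3 and 5 in T1 (26.0% and 25.9%). The NeoT counts lay near those of all genes. The subunits of the prenyltransferase for RAB proteins went opposite ways: RABGGTB was 3.93-fold higher in CA1 (adjusted p = 1.82e-12) and 3.74-fold higher in NeoT (adjusted p = 2.81e-12) than in A10, whereas RABGGTA was 2.31-fold lower in CA1 (adjusted p = 1.47e-09) and 2.94-fold lower in NeoT (adjusted p = 4.78e-11).

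**Figure D5:**
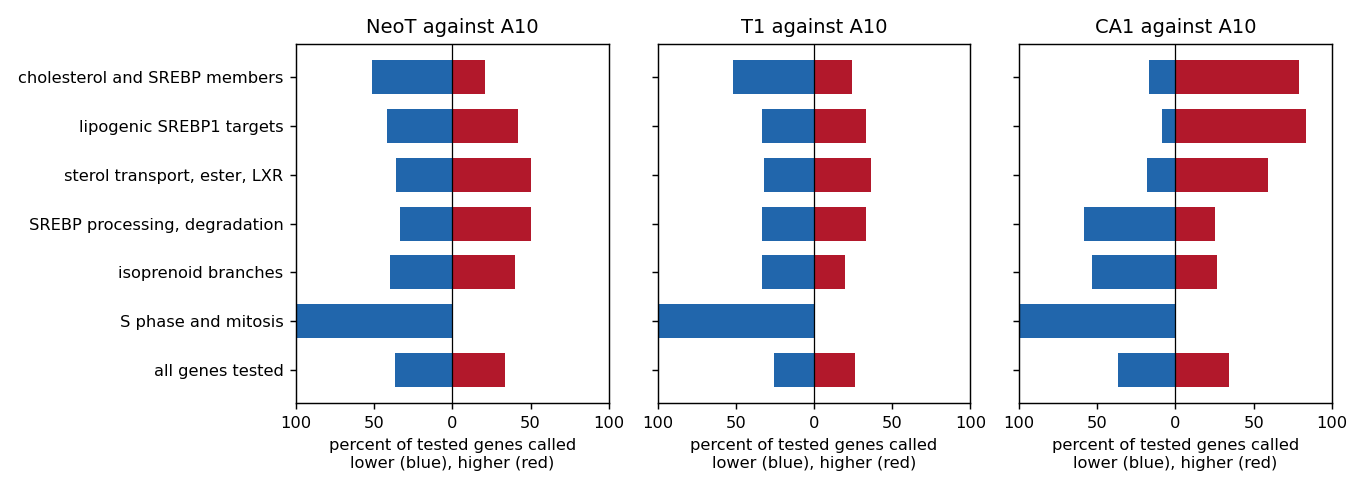
Percent of tested genes called lower (blue, to the left) and higher (red, to the right) than in A10 for each gene list (rows) in NeoT, T1 and CA1 (panels). In CA1, 23 of the 29 cholesterol and SREBP genes and 10 of 12 lipogenic targets are higher, whereas the bottom row over all genes is nearly balanced in every panel.

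Other gene groups also differed among the lines, and their part in the levels of the cholesterol genes was not tested. All 16 S phase and mitosis genes were lower than in A10 in each derived line, with summed levels of 531 to 579 CPM in NeoT, 1065 to 1076 in T1, 772 to 779 in CA1 and 2116 to 2221 in A10. The sums rose in the order NeoT, CA1, T1 and A10. Mesenchymal markers were higher in NeoT than in A10 in 6 of 7 cases, with a summed level of 17792 to 21536 CPM in NeoT, 242 to 263 in T1, 629 to 651 in CA1 and 2044 to 2249 in A10. FN1, with a mean of 15978 CPM, made up most of the NeoT sum, and SPARC was the 1 marker lower in NeoT (87.0-fold). In CA1, 2 of the 7 were higher than in A10 (SPARC 2.20-fold and LOX 3.05-fold) and 5 were lower. Among those 5, DCN, a fibroblast proteoglycan, was at 0 in CA1. Of 7 adipocyte markers, 6 were tested and 6 were higher in NeoT, 4 in T1 and 5 in CA1 than in A10, with summed levels of 97.0 to 110 CPM in NeoT, 92.8 to 101 in T1, 171 to 174 in CA1 and 12.7 to 14.4 in A10, and ADIPOQ, the defining adipokine, was at 0 in all 4 lines. Of 4 leukocyte markers, the defining PTPRC and CD3E were at 0 in all 4 lines, and the summed level of the 4 was 204 to 220 CPM in NeoT, 94.6 to 103 in T1, 101 to 105 in CA1 and 70.3 to 73.6 in A10. CD68 and CD14 made up this sum: CD68 was 19.2-fold higher in NeoT (adjusted p = 1.62e-17) and 10.1-fold higher in CA1 (adjusted p = 5.41e-16) than in A10, whereas CD14 was 1.20-fold lower in NeoT (adjusted p = 0.00597) and 3.30-fold lower in CA1 (adjusted p = 1.47e-12). Of 3 endothelial markers, the summed level was 1.68 to 3.05 CPM in NeoT, 82.3 to 90.3 in T1, 23.7 to 24.99 in CA1 and 1.91 to 2.94 in A10. Nearly all of it in T1 and CA1 was PECAM1, with means of 85.6 CPM in T1 and 23.96 CPM in CA1, while CDH5 averaged 0.495 CPM in T1 and 0.150 CPM in CA1, and VWF 0.131 CPM in T1 and 0.058 CPM in CA1. None of the 3 hepatocyte markers ALB, TTR and CYP7A1 passed the filter on low counts.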

How the data were processed

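RNA was treated with DNase and made into libraries with a NEBNext Ultra kit, per the labels' protocols; whether strand was kept, the annotation and tool versions are not given in the sources used here. The authors deposited 1 table of estimated counts per gene, which need not be whole and whose name gives Salmon as the tool. GRCh38 and limma are named in the submitters' processing notes, with no role. Estimated counts were rounded to whole numbers, which moved no value by more than 0.5. Values of ACAT2, IDI1, FDPS, LSS, HSD17B7 and NPC1 were not whole in 3 to 12 libraries. Besides ACAT2 and SREBF1, MVK, IDI1 and NPC1 overlap tested protein-coding genes (MMAB, WDR37 and RMC1). Reads in those overlaps likewise cannot be told apart.

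Genes were filtered with filterByExpr, scaled by TMM and fitted with edgeR 4.0.16 (glmQLFit, robust, in R 4.3.3) with a mean per line over all 12 libraries, without a replicate block. Adjusted p is Benjamini-Hochberg over all 14417 genes tested. DESeq2 1.42.0, limma-voom (limma 3.58.1), other scalings and filters, a replicate block and each library left out were alternatives. Replicate numbers did not pair the libraries. The 29 genes and the other lists were chosen with earlier results of these data known. Full statistics are given for up to 4 genes per role with the smallest adjusted p among the lines and for the INSIG and SREBF genes, and for up to 3 genes of each other list. ACAT2, PMVK and the neighbouring genes were singled out after their values were seen. Counting intervals and floors cover counting error only.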

Additional observations from a re-analysis of the deposited data

How the results depend on the processing

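Over 22 alternatives, 0 of the 29 genes reversed a called direction, and 22 of 174 gene values, in 15 genes, changed their call in at least 1. The counts in CA1 against A10 remained 23 higher and 5 lower throughout. The count of genes higher in T1 than in A10 ran from 4 to 7 with single libraries left out, and was 4 without T1 replicate 2. The count lower in T1 likewise ran from 15 to 19, and was 19 without NeoT replicate 3. The count lower in NeoT than in A10 ran from 15 to 18. Fold changes of ACAT2 in CA1 against A10 were log2 -14.18 without CA1 replicate 2, -8.51 without CA1 replicate 3 and -10.42 by limma-voom, against -9.15 with all libraries, and CA1 replicate 2 alone holds the line's 10 counts. ABCA1 was higher in T1 than in NeoT (adjusted p = 0.0211), but not without NeoT replicate 1 (adjusted p = 0.0854) or T1 replicate 2 (adjusted p = 0.163). LPIN1 in T1 against NeoT lost its call in 11 alternatives.

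Same-numbered libraries of different lines had correlations of -0.19 to 0.18 (18 pairs, median 0.02, 4 above 0.1), so the numbers were not taken to pair them. With a replicate block, the counts higher and lower were 6 and 15 in NeoT, 7 and 15 in T1, and 23 and 5 in CA1 against A10, 15 and 6 in T1 against NeoT, 22 and 4 in CA1 against T1, and 22 and 4 in CA1 against NeoT, and no call on the 29 genes changed. Depth limits ABCA1, with 23 to 118 estimated counts per line.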

Other observations

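Levels around other genes of the pathway are given as values. Of 30 tested genes within 2 Mb of HSD17B7 on chromosome 1, 21 were lower and 1 higher in NeoT than in A10 (median log2 -0.76), 20 lower and 2 higher in T1 (median -0.71), and 17 lower and 5 higher in CA1 (median -0.39), where HSD17B7 itself was higher. Of 97 tested genes within 2 Mb of FDPS, 62 were lower and 11 higher in CA1 than in A10 (median log2 -0.75), where FDPS itself was higher (log2 0.35). Of 17 tested genes around NPC1, 12 were higher and 2 lower in CA1 than in A10 (median log2 0.72), and 9 were higher and 2 lower in T1 (median 0.30), where NPC1 itself was lower (log2 -0.31, adjusted p = 0.00309).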
